A study of Homo sapiens with 6 samples.

Results

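The membrane skeleton of MDA-MB-231-BrM2a cells was examined through 60 cassette exon events, which were all the events listed for 10 gene symbols out of 24725 events for 7969 symbols. A cassette exon is an exon that is either kept between its flanking exons or skipped. The 10 genes were EPB41, EPB41L1, EPB41L2, EPB41L5, NF2, SPTAN1, SPTBN1, ADD1, ADD3 and ANK3, and each had at least 1 event. MDA-MB-231-BrM2a is a brain-metastatic subline of MDA-MB-231, a human line of breast cancer. The Control group was 3 samples of a non-clonal population carrying the empty retroviral vector pRetroX-Tight-Pur. The RBM47 group was 3 samples of a clone, WT10, grown from a single cell, with Flag-tagged wild-type RBM47 under the doxycycline-inducible promoter of that vector. All 6 samples received doxycycline at 10 ng/ml for 3 days, and polyadenylated RNA was sequenced. The RBM47 transgene and the choice of 1 clone cannot be told apart. The sources do not say whether the samples of a group were separate cultures, so the spread between them may be technical.

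Spectrin forms a flexible network under the plasma membrane, in which dimers of alpha spectrin (SPTAN1) and beta spectrin (SPTBN1) are tied to short actin filaments. The protein of EPB41 strengthens the bond between spectrin and actin. Proteins of the EPB41 family (EPB41 and its relatives EPB41L1, EPB41L2 and EPB41L5) carry a FERM domain that binds membrane proteins. Adducins (ADD1 and ADD3) cap and bundle the actin ends, and ankyrins (ANK3) tie spectrin to channels and adhesion molecules. Merlin (NF2) is a tumour suppressor with a FERM domain related to that of EPB41. Transcripts of these genes are known for alternative exons that alter the binding surfaces of their proteins. RBM47 is an RNA-binding protein, and whether its expression was accompanied by other exon choices was the question of the comparison.

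The measure was the inclusion rate, a fraction given per sample by the authors, in which reads joining the kept exon to its neighbours are divided by themselves plus 2 times the reads that skip it. Read totals were given only as sums over the 3 samples of a group, so the depth of a single sample is unknown. They came to 26498401 junction reads in Control and 24116982 in RBM47 over all events. Of the 60 events, 47 had sample rates that gave back the group averages printed in the same row. For 12 events they did not, and the rates were taken from the row whose rates did give them back, by both averages in 5 events and by the RBM47 average alone in 7. For 1 event, ADD3 event 1, the matched rates went against the read totals and were left out. These 7 events are all among the results that follow, so the rate from the summed reads, which does not depend on the match, is given beside each. In 8 of the 59 events with rates that summed rate lay above every sample rate of a group by more than 0.005, as it did in 15.2% of all events in Control and 15.4% in RBM47, and in none did it lie below them, so including totals can hold reads that the rates do not use.

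The 10 genes were selected on earlier results for these samples, namely differences in inclusion rate between RBM47 and Control, and for their place in the membrane skeleton. Differences in their rates are therefore given as descriptions, with no p. Both rules for calls given here were run over the whole table, and the calls among these genes are only counted beside the share called over all events, with nothing read from them. By the criteria of the study (10 reads or more, mean rates at least 0.2 apart, and Fisher's exact test on the summed reads with p up to 0.05, not adjusted), 8 of the 59 events with rates were called, in 4 genes, against 1.40% of all events. Inclusion was lower in RBM47 in 6 of them, against 0.793% of all events, and higher in 2, against 0.611%. A second rule, limma on the sample rates with an adjusted p under 0.05 and the same minimum difference, was applied to events whose mean over all samples was 0.1 to 0.9. It called 2 of 16 events (EPB41 event 6 and NF2 event 7), both lower in RBM47, against 1.53% in either direction and 0.783% in the lower direction over all events. Of these 2 calls, 1 was still made without RBM47 replicate 2 and 0 without any other single sample. Sample rates were clear of each other, with no overlap between Control and RBM47, in 9 of these 16 events and in no other of the 59, against 17.9% of all events in that range and 9.93% of all events with rates. In 41 of the 59 events the mean rates differed by less than 0.05, and in 12 they did not differ at all. The events just inside the required difference were ADD3 event 8 at 0.229 and EPB41L1 event 8 at -0.244, and the closest outside it were EPB41 event 9 at 0.167 and SPTAN1 event 2 at -0.137, each as the RBM47 mean minus the Control mean.

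**Figure D1:**
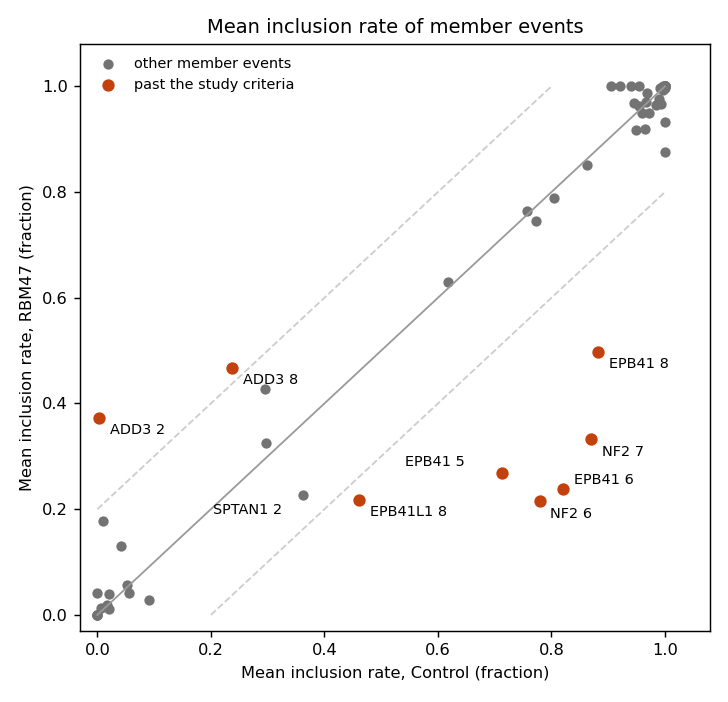
Mean inclusion rate (fraction) of each of the 59 events in Control (x axis) and RBM47 (y axis), with means over 3 samples, a solid line at equal rates and dashed lines at a difference of 0.2. Orange points are the 8 events past the criteria of the study, named by gene and event number, of which 6 lie under the lower dashed line and 2 above the upper one; most others lie in the corners near 0 or 1.

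Exons were placed on GRCh37 by gene and by the distance between flanking exons, since the coordinates of the table are shifted from that build, and 37 of the 60 events were matched to 32 different exons. Of the 27 that are coding over their whole length, 23 have a length divisible by 3, against 49.2% of 7844 coding exons matched over the whole table, so that skipping them keeps the reading frame. The exons on which the results turn are shown on the sense strand, 5′ to 3′, with the exon in capitals and 40 bases of each flanking intron in lower case. The first pair are the neighbouring EPB41 exons of 57 bases (chr1:29385101-29385157) and 63 bases (chr1:29386934-29386996). The 63-base exon of EPB41L2 (chr6:131201284-131201346, minus strand) stands beside them because it is the counterpart of the EPB41 exon of the same length.
EPB41 57-base exon: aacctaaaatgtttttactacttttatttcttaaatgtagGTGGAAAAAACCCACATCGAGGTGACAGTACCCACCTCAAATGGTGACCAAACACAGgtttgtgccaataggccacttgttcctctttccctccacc
EPB41 63-base exon: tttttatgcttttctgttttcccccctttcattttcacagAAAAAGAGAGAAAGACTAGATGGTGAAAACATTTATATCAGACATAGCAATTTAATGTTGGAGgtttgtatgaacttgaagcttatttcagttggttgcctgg
EPB41L2 63-base exon: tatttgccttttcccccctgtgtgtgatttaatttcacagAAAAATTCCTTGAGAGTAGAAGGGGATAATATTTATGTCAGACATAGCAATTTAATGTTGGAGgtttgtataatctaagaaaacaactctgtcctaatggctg

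The 63-base exons of EPB41 and EPB41L2 had the same base at 50 of 63 positions, and their last 26 bases were identical. Next come the exon of SPTAN1 (chr9:131355262-131355321) and that of ADD3 (chr10:111892063-111892158), and then the NF2 exon (chr22:30079009-30079053), for which capitals mark the 36 bases that run to the end of its stop codon and only the upstream intron is shown.
SPTAN1 60-base exon: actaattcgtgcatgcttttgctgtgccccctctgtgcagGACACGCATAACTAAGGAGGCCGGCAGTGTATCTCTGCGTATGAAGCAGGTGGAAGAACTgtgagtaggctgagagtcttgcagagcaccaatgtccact
ADD3 96-base exon: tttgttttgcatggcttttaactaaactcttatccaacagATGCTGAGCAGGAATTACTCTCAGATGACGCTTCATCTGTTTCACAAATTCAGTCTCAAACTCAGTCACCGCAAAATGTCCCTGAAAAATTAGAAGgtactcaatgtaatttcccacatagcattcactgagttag
NF2 exon, coding part: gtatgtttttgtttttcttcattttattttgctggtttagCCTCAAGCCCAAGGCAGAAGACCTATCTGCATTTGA

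The hexamer TGCATG, known as the binding sequence of RBFOX splicing regulators, was searched on the sense strand in the 200 intron bases on each side of each exon. It was present in at least 1 window of 10 of the 32 exons, against 12.6% of the 9589 exons matched over the whole table. The 63-base exon of EPB41 had 3 copies downstream, starting 97, 107 and 139 bases past the exon, and that of EPB41L2 had 3, starting at 101, 110 and 135. The 57-base exon of EPB41 had none. In NF2 a copy started 62 bases past the exon, and in EPB41L1 a copy started 117 bases past the 411-base exon. The SPTAN1 and ADD3 exons had theirs upstream, where the copy began 31 and 33 bases before the exon, inside the intron bases shown. The run TTTTT stood upstream of 19 of the 32 exons, against 52.6% of all matched exons, and downstream of 15, against 45.7%. Binding was not measured in these samples. The study mapped RBM47 binding in a separate experiment (HITS-CLIP on Flag-RBM47 cells of the same subline), which was not used here.

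EPB41, the founding gene of its family, had 12 events, of which 3 passed the criteria of the study, all lower in RBM47. Its 63-base exon encodes part of the domain that binds spectrin and actin. Read between the constitutive flanks of the exon pair (event 6), that exon had inclusion rates of 0.852, 0.793 and 0.818 in Control and 0.333, 0.143 and 0.238 in RBM47. Every RBM47 sample was below every Control sample. The Control mean was 0.821 ± 0.0295 and the RBM47 mean 0.238 ± 0.0952 (SD, n = 3 each), a difference of -0.583. The summed reads were 74 that kept the exon and 8 that skipped it in Control, and 27 and 32 in RBM47, which gave rates of 0.822 and 0.297. The averages printed in the row of event 6 differed by -0.223.

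The 57-base exon between the same flanks (event 5) had rates of 0.733, 0.647 and 0.76 in Control and 0.333, 0.25 and 0.22 in RBM47, again without overlap. Its mean was 0.713 ± 0.059 for Control against 0.268 ± 0.0589 for RBM47 (SD, n = 3 each), a difference of -0.446. The summed rates were 0.738 and 0.264, with 45 reads keeping the exon and 8 skipping it in Control, against 23 and 32 in RBM47. The averages printed in the row of event 5 differed by only -0.0462. Events 5 and 6 share their skipping reads, so they are not independent of each other. When the 63-base exon was read after the 57-base exon (event 8), the rates were 1, 0.931 and 0.714 in Control and 0.636, 0.333 and 0.524 in RBM47, with means of 0.882 ± 0.149 and 0.498 ± 0.153 (SD, n = 3 each). The groups lay closer together here, with 0.714 as the lowest Control rate and 0.636 as the highest in RBM47. The summed rates of event 8 were 0.84 and 0.593, and it shares reads with event 6. In contrast, the 57-base exon read before a kept 63-base exon (event 4) had mean rates of 0.617 in Control and 0.629 in RBM47, with overlapping samples from 0.5 to 0.75 in both groups.

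The junction reads of the pair could be told apart, because the sums over single junctions equalled the including totals of both events exactly in both groups. Of the 6 junctions among the upstream exon, the 57-base exon, the 63-base exon and the downstream exon, the junction that skips both exons held 8 of 157 reads in Control, or 5.1% (95% Wilson interval 2.6 to 9.73%), and 32 of 93 in RBM47, or 34.4% (25.5 to 44.5%). Counting only reads that leave the upstream exon, 12.3% (6.37 to 22.5%) of 65 reads skipped both exons in Control and 64% (50.1 to 75.9%) of 50 reads did so in RBM47. Reads from the upstream exon into the 57-base exon made up 56.9% and 24%, and reads into the 63-base exon 30.8% and 12%. Both exons thus held a smaller share of these reads in RBM47, and the reads into the first and the second were 37 to 20 reads in Control and 12 to 6 in RBM47. These intervals cover counting error only and pool 3 samples.

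**Figure D2:**
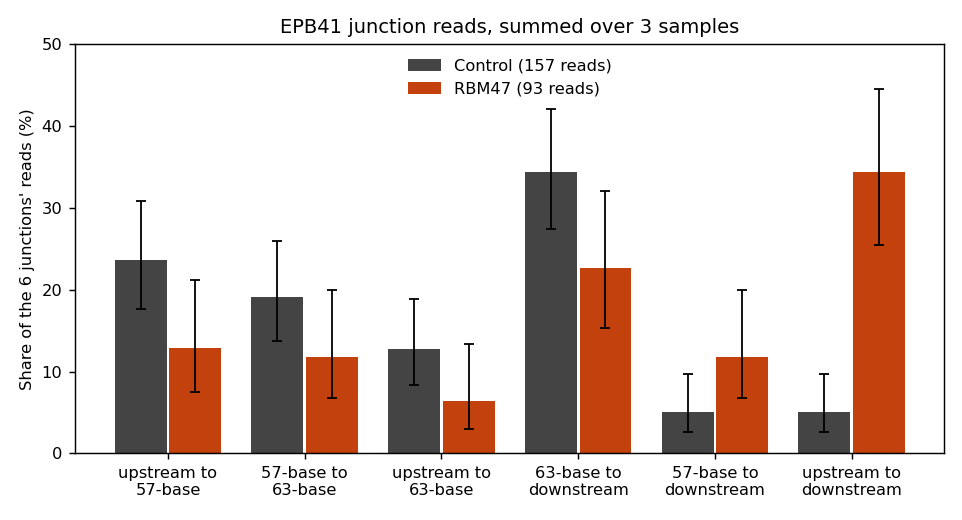
Share (%) of the reads of 6 EPB41 junctions held by each junction, in Control (157 reads) and RBM47 (93 reads), each summed over 3 samples. Bars start at 0 and error bars are 95% Wilson intervals for counting error; the double-skipping junction, at the right, held 5.1% of the reads in Control and 34.4% in RBM47.

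The other EPB41 events had differences in mean rate of at most 0.167 in size. The 36-base exon further downstream (event 9) had rates of 0, 0 and 0.0286 in Control and 0, 0.4 and 0.13 in RBM47, so the groups overlapped at 0. In contrast to the 3 called events of EPB41, its difference was in the higher direction. The summed reads, 7 keeping the exon and 44 skipping it in Control against 30 and 31 in RBM47, gave rates of 0.0737 and 0.326, a difference of 0.252, and the means differed by 0.256 without RBM47 replicate 1 and by 0.0557 without RBM47 replicate 2. With summed reads, and without RBM47 replicate 1, the event passed the criteria of the study. The 42-base exon (event 7) was mostly skipped in both groups, with samples from 0 to 0.125 in Control and from 0 to 0.25 in RBM47. The 80-base exon (event 1) was skipped in every sample, from 68 reads in Control and 41 in RBM47.

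NF2 had 7 events, 2 of which passed the criteria of the study, both lower in RBM47. They share 1 pair of flanking exons and the same skipping totals, which were 7 for Control and 37 for RBM47. The only annotated exon that lies between flanks at this distance is the 45-base exon shown above, in which 33 coding bases are followed by a stop codon, so that merlin with this exon ends in another C terminus than merlin without it. Which of the 2 events reads that exon could not be told. NF2 event 6 had rates of 0.81, 0.75 and 0.778 in Control and 0.29, 0.231 and 0.125 in RBM47. Its mean was 0.779 ± 0.0298 for Control against 0.215 ± 0.0837 for RBM47 (SD, n = 3 each), a difference of -0.564, and the summed rates were 0.797 and 0.213. NF2 event 7 had rates of 0.871, 0.867 and 0.87 in Control and 0.371, 0.375 and 0.25 in RBM47. The 3 Control samples of event 7 lay closer together than those of any other non-overlapping event, and the groups were far apart in both events. The mean of event 7 was 0.869 ± 0.00219 for Control against 0.332 ± 0.0712 for RBM47 (SD, n = 3 each), a difference of -0.537, with summed rates of 0.874 and 0.321. The averages printed in the row of event 7 differed by -0.136, under the required 0.2.

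The 5 remaining NF2 events lie near the 5′ end of the gene, in the part that encodes the FERM domain. Their differences ran from -0.0321 to 0.06. The exons of events 1 and 2 and the 123-base exon of event 5 were mostly kept, with Control means of 0.94 to 0.972. Events 1 and 2 share their flanks, and the only annotated exon matched between them has 126 bases. Which of these 2 events reads it could not be told. Only the end of NF2 that encodes the C terminus of merlin thus held called events, and no test of one end against the other was made.

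**Figure D3:**
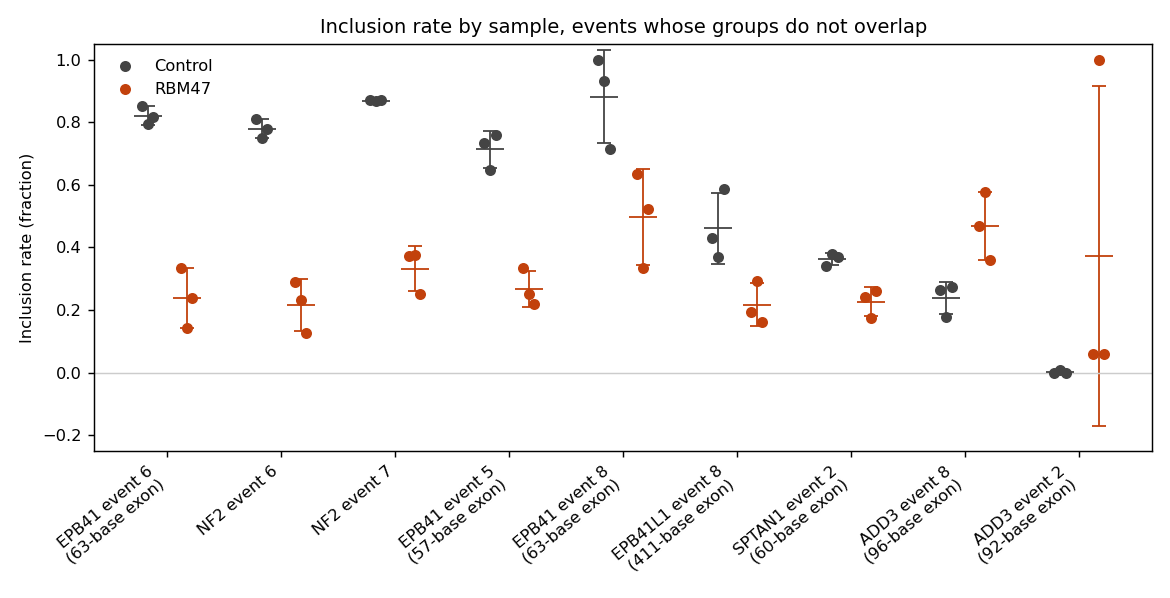
Inclusion rate (fraction) in each of the 6 samples for the 9 events whose groups did not overlap, ordered by difference. Points are samples (Control grey, RBM47 orange), horizontal marks are means and whiskers 1 SD (n = 3); rates lie between 0 and 1 and the whisker below 0 of ADD3 event 2 comes from 1 sample at 1 beside samples at 0.0588. RBM47 was lower in 7 events and higher in the 2 of ADD3.

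EPB41L1, a relative of EPB41 known from neurons, had 10 events and 1 call. Its 411-base exon (event 8, chr20:34797410-34797820) had rates of 0.429, 0.368 and 0.586 in Control and 0.194, 0.294 and 0.162 in RBM47, without overlap. The mean was 0.461 ± 0.112 for Control against 0.217 ± 0.0689 for RBM47 (SD, n = 3 each), a difference of -0.244. The summed reads gave higher rates than any sample, 0.677 in Control and 0.37 in RBM47, with the difference in the same direction at -0.307. Without Control replicate 3 the difference of the means was -0.182 and the event was not called. A pair of events with 1 shared set of flanks further downstream (events 9 and 10), for which the annotation holds exons of 84 and 81 bases, had overlapping rates. Event 10 had 0.308, 0.222 and 0.356 in Control and 0.5, 0.444 and 0.34 in RBM47, and event 9 had means of 0.297 and 0.325. The 7 other events differed by at most 0.0952 between group means.

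EPB41L2 and EPB41L5 had no called event. In EPB41L2 the 4 events had rates near 1, with Control means of 0.959 to 0.993 and differences of -0.026 to 0.00427. EPB41L2 event 3, with 2389 reads in Control and 2107 in RBM47, had rates of 0.956, 0.965 and 0.956 in Control and 0.981, 0.925 and 0.943 in RBM47, which overlap. The 63-base exon of EPB41L2, the counterpart of the EPB41 exon, had rates of 1, 1 and 0.978 in Control and 1, 1 and 0.9 in RBM47. The rate was thus near 1 in both groups, unlike that of the EPB41 exon, but it counts skipping between 1 pair of flanks only. The reads of the event were 608 in Control and 93 in RBM47, so whether the exon was kept as often in RBM47 cannot be told from the rate. The single EPB41L5 event, a 43-base exon, was kept in all 6 samples (rate 1) over 109 and 52 reads.

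Alpha spectrin had the deepest of the intermediate events. The 60-base exon of SPTAN1 (event 2), whose residues lie beside the SH3 domain of alpha spectrin, had rates of 0.342, 0.38 and 0.368 in Control and 0.242, 0.174 and 0.262 in RBM47. All RBM47 samples were below all Control samples. The mean was 0.363 ± 0.0194 for Control against 0.226 ± 0.0459 for RBM47 (SD, n = 3 each). The difference of -0.137 was under the required 0.2, so the event was not called by either rule. By limma its adjusted p was not under 0.05 either, since with no required difference the lower calls among the 10 genes stayed at the same 2. The summed rates of 0.361 and 0.244 came from 3260 reads in Control and 2166 in RBM47. A short exon of 18 bases (event 4) was kept at 0.862 ± 0.0112 in Control and at a mean of 0.852 in RBM47, from 6839 and 5531 reads. The exons of 51 bases (event 1) and 15 bases (event 3) were nearly always skipped, with means of 0 in both groups for the former and of 0.0178 and 0.0188 for the latter.

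Beta spectrin had no intermediate event. SPTBN1 event 1, an 85-base exon read by 9595 reads in Control and 7167 in RBM47, had a rate of 1 in every Control sample and of 1, 0.997 and 0.993 in RBM47. SPTBN1 event 2 had rates of at most 0.0249 in any sample. Its summed reads gave higher rates than any sample, 0.0826 in Control and 0.0475 in RBM47.

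The adducin genes differed from each other in what was listed. ADD3, which encodes gamma adducin, had 8 events and both of the calls in which inclusion was higher in RBM47. Its 96-base exon (event 8), an alternative exon near the end of the coding region, had rates of 0.263, 0.179 and 0.273 in Control and 0.468, 0.576 and 0.359 in RBM47, without overlap. The mean was 0.238 ± 0.0518 for Control against 0.468 ± 0.108 for RBM47 (SD, n = 3 each), a difference of 0.229. Summed reads gave 0.241 and 0.482, with 151 reads keeping the exon and 238 skipping it in Control, against 106 and 57 in RBM47. The averages printed in its row differed by 0.4. Without Control replicate 2 the difference was just under 0.2, and without RBM47 replicate 2 it was 0.175, so the event was not called in either case.

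ADD3 event 2, a non-coding exon of 92 bases (chr10:111835376-111835467), had rates of 0, 0.00763 and 0 in Control and 0.0588, 1 and 0.0588 in RBM47. The mean of 0.373 ± 0.543 (SD, n = 3) in RBM47 against 0.00254 in Control rested on RBM47 replicate 2, and without it the difference was 0.0563 in place of 0.37. The read totals of the event were 104 in Control and 23 in RBM47, and the summed rates were 0.00483 and 0.179, whose difference of 0.175 was under the required 0.2. RBM47 replicate 2 stood apart in the whole table too, where 14.8% of its rates for events of mean rate 0.1 to 0.9 were exactly 0 or 1, while the other samples had 6.08 to 7.64%. Its part in other results was checked by leaving it out. By the criteria of the study the 6 lower calls were still 6, but the 2 higher calls became 0. The 2 lower calls by limma became 1. ADD3 event 1 has no rates here, and its summed reads were 1 including and 14 skipping in Control and 5 and 0 in RBM47. The 5 other ADD3 events had differences of at most 0.019.

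ADD1, which encodes alpha adducin, had 7 events and no call, with differences of -0.0191 to 0.00769. ADD1 event 1, with 2139 reads in Control and 1112 in RBM47, had rates of 0.962, 0.973 and 0.963 in Control and 0.972, 0.976 and 0.962 in RBM47. The groups overlapped and every sample kept the exon almost always. ANK3, which encodes ankyrin G, had 5 events and no call, with differences of -0.0631 to 0.0417 from no more than 87 reads an event in either group. ANK3 event 4 had a rate of 0 in all 6 samples, but its summed reads gave rates of 0.0843 in Control and 0.234 in RBM47. Those reads were 7 including and 38 skipping in Control, and 22 and 36 in RBM47. ANK3 event 3 had a rate of 1 in all 6 samples. It shares its flanks with event 2, and the only annotated exon matched between them has 309 bases. Which of these 2 events reads that exon could not be told.

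Junction reads per event, which follow the level of the transcript as well as depth, differed among the genes. Over all events the ratio of RBM47 to Control reads had a median of 0.856, with quartiles of 0.645 and 1.07. No count per sample was used, so these ratios have no replicate error, and events of 1 gene share reads. ADD3 had the lowest median ratio of the 10 genes, at 0.272 over its 8 events (0.221 to 0.419), and 1.56% of all events had a ratio under that median. ADD1 had a median of 0.545, with all 7 events between 0.506 and 0.598. ANK3 had the highest median, at 1.19 (1.03 to 1.29). The event of the EPB41L2 63-base exon had 93 reads in RBM47 and 608 in Control, and 0.0849% of all events had a ratio under its 0.153, while the other 3 EPB41L2 events had ratios of 0.696 to 0.882. Its inclusion rate does not show this, because reads that skip the exon between the same flanks were only 2 in each group.

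**Figure D4:**
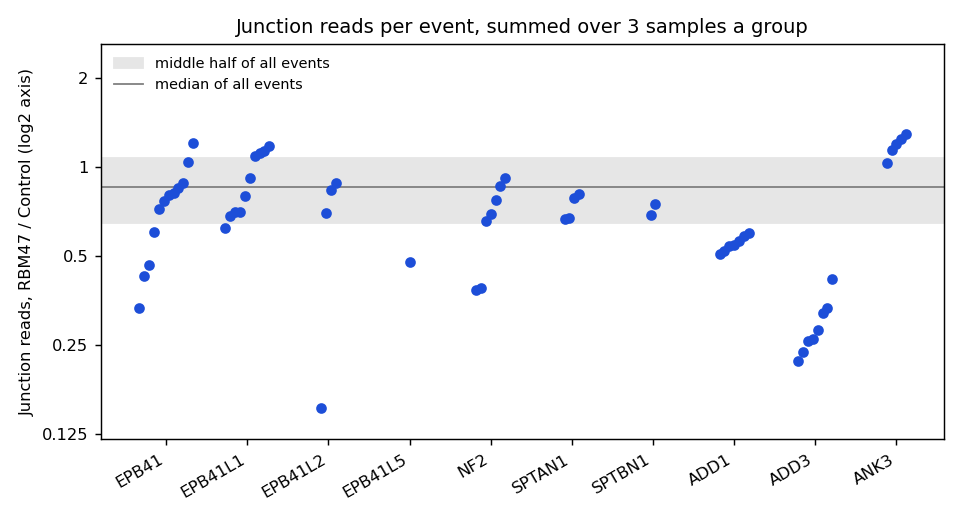
Ratio of junction reads in RBM47 to Control (log2 axis) for each of the 60 events, by gene, from reads summed over 3 samples a group. The grey band spans the quartiles of all events, 0.645 to 1.07, around their median of 0.856. All ADD3 and ADD1 events, the EPB41L2 63-base exon at 0.153 and the EPB41L5 event lie under the band, as does part of the EPB41, EPB41L1 and NF2 events.

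To set these genes beside others of the same skeleton, a wider list of 40 symbols was taken from textbook knowledge (other spectrins, ankyrins, FERM proteins such as ezrin, radixin and moesin, and their partners), of which 23 had an event. Of their 57 events 1, or 1.75%, was called by the criteria of the study, in PTPN4, a tyrosine phosphatase with a FERM domain. Its rates were 1, 1 and 1 in Control and 1, 0.5 and 0.895 in RBM47, which overlap at 1, with means of 1 and 0.798 ± 0.264 (SD, n = 3). Without RBM47 replicate 2 the event was not called. By limma 0 of 12 events tested were called, and 1 had an unadjusted p under 0.05. The median difference over events of mean rate 0.1 to 0.9 was -0.0506 in the wider list, -0.0217 in the 10 genes and -0.00562 over all events.

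The cell line was checked by markers through junction reads alone. VIM (vimentin, 7 events), FN1 (fibronectin, 9) and CD44 (16) had events, with up to 171444, 2953 and 10845 reads an event in Control, and up to 122643, 1051 and 4442 in RBM47. KRT8 (keratin 8) had 1 event with 3199 and 6358 reads, and MSN had 2 events. CDH1, EPCAM, ESRP1, KRT18, PTPRC, PECAM1 and PDGFRB had no event listed, and ESRP2 had 1 with 38 and 29 reads. RBM47 itself had no event listed, so its expression was not checked here, and a gene without an event is not shown to be silent.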

How the data were processed

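Human MDA-MB-231-BrM2a cells, 3 Control and 3 RBM47 samples by their labels, were sequenced with paired-end reads of polyadenylated RNA. TopHat is named in the submitters' processing notes. The study's methods describe mapping to cassette exon junctions, and for RNA-seq of cell lines they name STAR and the hg19 build (GRCh37). The coordinates of the table are not on that build as they stand, since those of all 10 genes were shifted from it, and the build they are on is not given in the sources used here. The inclusion rate per sample is a fraction deposited by the authors. Read counts were deposited as sums per group, so no count model per sample could be run and single-sample depth is unknown. Columns with the authors' own comparison (difference of averages, odds ratio and Fisher p) were not used.

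Of 24725 rows, 1392 (5.63%) had sample rates that did not give back the averages printed in the row. They were matched to other rows within 3e-09, by both averages (1121 rows) or by the RBM47 average (253). A match was refused where more samples had a rate above 0 than there were including reads, or below 1 than skipping reads (1 row). Rates were then available for 24707 events. Fisher's exact test used SciPy 1.17.1, and limma 3.58.1 (R 4.3.3) was fitted to arcsine square root rates of 5999 events with a variance trend on log2 reads and Benjamini-Hochberg adjustment; limma was tested on simulated data. Exons were placed on GRCh37 (GENCODE) by span, the NF2 exon within 10 bases at the last exon, the EPB41 pair by junction sums and the ADD3 96-base exon by its distance from other ADD3 events; all 10 genes had 1 constant shift between the table and GRCh37. Sequences were read from that genome with pysam 0.24.0.

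The 10 genes, the wider list and the tests were chosen with earlier results of these data known. Events named with sample values were those past either rule and, for each gene, the event of mean rate 0.1 to 0.9 with the largest difference and at least 30 reads in each group, or otherwise the one with the most reads; other values of single events were chosen after they were seen. Alternatives covered the required difference, read minimum, adjustment, row matching, summed reads, transformation, variance trend, replicate block and leaving out each sample. Numbers of the replicates did not pair the samples.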

Additional observations from a re-analysis of the deposited data

How the results depend on the processing

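Counts by the criteria of the study moved most with the row matching. With only rows aligned as deposited, 1 lower and 0 higher member events were called in place of 6 and 2, since the others rest on matched rates. The higher count was 1 with a required difference of 0.3 and 1 with at least 30 reads in each group, while with summed reads it was 3 (ADD3 events 1 and 8 and EPB41 event 9). Leaving out single samples gave 0 to 3, with 3 in the absence of RBM47 replicate 1, where EPB41 event 9 was added, 0 in the absence of RBM47 replicate 2 and 1 in that of Control replicate 2; the lower count ranged from 5 to 6. The 1 lower call in the wider list was 0 with a required difference of 0.3, with adjusted Fisher p, with summed reads and without RBM47 replicate 2 (range 0 to 1). By limma, the 2 lower member calls became 4 with no variance trend, 0 with a replicate block, 0 with aligned rows only, and 0 to 1 when a sample was left out, 1 only without RBM47 replicate 2. Over all events limma called 92, 69 with the replicate block and 1 with aligned rows only. Same-numbered samples did not deviate together (r = -0.0225, -0.00548 and 0.0139 for numbers 1, 2 and 3), so they share only a number. The counts by the criteria of the study come from pooled reads and means and had no blocked fit.

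With the rates standing in the same row as deposited, unmatched, the difference reversed for ADD3 event 2 (-0.0601), ADD3 event 8 (-0.298), EPB41L1 event 8 (0.379) and NF2 event 7 (0.221), and with the averages printed in the row it reversed for ADD3 event 2 (-0.372). Of 140 alternatives over the 14 named events, 126 kept the value within the larger SD of the groups, 9 moved it and 5 reversed it. This count is no measure of robustness. With 3 samples a group, leaving out 1 cannot shift a mean by more than its SD, so such alternatives could not count as moved. The fall of ADD3 event 2 from 0.37 to 0.0563 without RBM47 replicate 2 was thus counted as kept. ANK3 event 3 and EPB41L5 event 1 had a difference of 0 in every alternative. With the printed averages EPB41 event 6 was at -0.223, EPB41 event 5 at -0.0462, NF2 event 7 at -0.136 and ADD3 event 8 at 0.4, where the summed reads gave -0.526, -0.473, -0.553 and 0.241. Precision was limited by read totals under 110 a group in the EPB41 and NF2 events called, and by the absence of counts per sample.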

Other observations

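The event whose 6 sample rates lay closest to those of EPB41 event 6, by Euclidean distance among 22919 events that had 30 or more reads per group, was in NIN, which encodes ninein of the centrosome (distance 0.149), with means of 0.759 ± 0.0283 and 0.292 ± 0.126 (SD, n = 3) from 3179 and 979 reads. It was followed by events in MARK3, a kinase of microtubule-associated proteins (0.221), C19orf12 (0.252), GIT2 (0.262) and PPP6R2 (0.273). These were picked for their likeness over the same samples, so the order is a description.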
